A study of Mus musculus with 18 samples.

Results

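The gene set around Slc22a6 holds 10 genes of the 34579 loci that each of the 3 deposited tables lists. Its members were chosen by their CFA and saline levels in these same tables, with 3 genes known from the arachnoid barrier (Slc47a1, Dpp4 and Cdh1) set beside Slc22a6, Msln, Slc26a7, Prdm6, Tspan11, Krtdap and Wfdc21. All 10 genes were found in every table at the same place. Slc47a1 has 2 rows per table and the row with the higher mean over the groups was read. The values of CFA over saline chose the genes, so they are given as a description and without a test.

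Dorsal spinal cord of lumbar segments L3–5 was sequenced from C57BL/6 mice (C57BL/6N in the methods) that the labels give as 3 months old. Every mouse had received rAAV in the dorsal horn of both sides, coding for the control protein β-galactosidase (LacZ), for the wild-type deacetylase (HDAC4 wt) or for a mutant kept in the nucleus (HDAC4 3SA). The study's vector scheme gives the CMV promoter for LacZ and Syn, the promoter of the neuronal gene synapsin, for both HDAC4 vectors. Promoter and protein therefore differ together between LacZ and either HDAC4 vector and cannot be told apart, whereas HDAC4 wt and HDAC4 3SA share a promoter. The paw was injected with saline or with CFA (complete Freund's adjuvant, which inflames the paw) 24 h before the tissue was taken. This gives 6 groups of 3 mice: LacZ saline, LacZ CFA, HDAC4 wt saline, HDAC4 wt CFA, HDAC4 3SA saline and HDAC4 3SA CFA. All groups therefore share the spinal surgery and a viral vector, no group is without a vector, and endogenous HDAC4 is present in all. The transduced cells were not separated from the rest of the dissected tissue.

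The arachnoid barrier is the layer of meningeal cells, joined by tight junctions, that separates the dura from the cerebrospinal fluid. Its cells carry transporters of organic ions, which move metabolites and drugs across the layer, and the adhesion molecule E-cadherin. HDAC4 is a class IIa histone deacetylase that shuttles between cytosol and nucleus and acts in the nucleus on transcription through partner factors such as MEF2. Bulk tissue gives 1 summed level per gene: fewer cells of a type and less RNA per cell cannot be told apart, and the cell of origin of a transcript was not measured.

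The tables give 1 FPKM value per group (read fragments relative to exon length and to all mapped fragments), estimated by the authors over the 3 mice, and no value per mouse, no count and no depth per library. Values therefore carry no error, and mice could not be compared with each other. Values in different tables were normalized in separate runs and are set side by side only as a description. Unless a plain ratio is named, a log2 ratio is log2 of (CFA + 0.1 FPKM) over (saline + 0.1 FPKM), which understates the change of the lowest genes. A gene is called raised or lowered when this log2 ratio reaches 1 in either direction, a 2-fold step. All 10 genes had a mean of at least 0.1 FPKM over the 6 groups, as had 33972 of the loci at the same place in the 3 tables, but 5 of the genes (Slc22a6, Slc47a1, Slc26a7, Msln and Krtdap) stayed at or below 0.121 FPKM in all 4 groups other than the CFA groups of LacZ and HDAC4 wt mice. Values of 0 can be failed estimates: Apoe, an abundant glial gene, is at 4195 FPKM in the HDAC4 wt saline group and listed at 0 in the HDAC4 wt CFA group. Cuffdiff, the authors' test program, marked that Apoe comparison HIDATA. The comparisons in which Krtdap or Wfdc21 has a group at 0 were marked OK, except Krtdap with HDAC4 3SA. That comparison was marked as holding too few alignments to be tested.

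Before the levels, the sequences just upstream of 3 starts are shown, of genes that were raised by CFA with LacZ and HDAC4 wt and not with HDAC4 3SA. RefSeq sequences upstream of the start (build GRCm38.p6) were given for 4 of the 10 genes, Slc22a6, Tspan11, Krtdap and Dpp4. Each run covers the 250 bases before the start, 5′ to 3′ on the plus strand, with matches to a searched motif in capitals. The runs lie at chr19:8617746-8617995 (Slc22a6), chr7:30787655-30787904 (Krtdap) and chr6:127887372-127887621 (Tspan11).
Slc22a6: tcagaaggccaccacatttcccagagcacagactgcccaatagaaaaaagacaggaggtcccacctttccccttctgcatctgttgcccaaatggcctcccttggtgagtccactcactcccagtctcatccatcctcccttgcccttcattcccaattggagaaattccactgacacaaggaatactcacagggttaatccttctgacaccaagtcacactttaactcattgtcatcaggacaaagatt
Krtdap: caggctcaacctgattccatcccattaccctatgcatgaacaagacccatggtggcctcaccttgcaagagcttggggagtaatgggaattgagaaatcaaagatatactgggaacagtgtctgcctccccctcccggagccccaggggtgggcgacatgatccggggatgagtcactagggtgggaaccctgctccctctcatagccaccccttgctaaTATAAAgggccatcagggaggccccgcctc
Tspan11: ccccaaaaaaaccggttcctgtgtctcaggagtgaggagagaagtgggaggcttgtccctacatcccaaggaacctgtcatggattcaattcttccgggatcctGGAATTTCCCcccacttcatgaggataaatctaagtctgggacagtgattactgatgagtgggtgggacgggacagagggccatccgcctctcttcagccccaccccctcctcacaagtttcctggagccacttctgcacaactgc

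Both strands were searched for the MEF2 consensus, the NF-kB consensus, a STAT pattern (TTCNNNGAA) and the TATA box (TATAAA). The MEF2 consensus was in 0 of the 4 windows and in 2.92% of 32851 windows of the same length over all genes. The STAT letters were in 0 of the 4 and in 7.02% of all windows. The NF-kB consensus was in 1 of the 4 (Tspan11, from 146 to 137 bases before the start) and in 3.90% of all. TATAAA was in 2 of the 4 (Dpp4 and Krtdap) and in 12.4% of all, and in Krtdap it ran from 30 to 25 bases before the start. The Slc22a6 window held none of the 4 motifs. A match says only that these letters are present, and its absence says nothing of the factor.

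The transporters come first. Slc22a6 encodes organic anion transporter 1 (OAT1), which takes up organic anions such as prostaglandins and many drugs and is best known from the kidney tubule. With LacZ it was at 0.0438 FPKM in the saline and 0.769 FPKM in the CFA group, at 0.0605 and 0.388 FPKM with HDAC4 wt, and at 0.0547 and 0.0752 FPKM with HDAC4 3SA. The CFA groups of LacZ and HDAC4 wt mice thus stood above the other 4 groups, which lay within 0.0438 to 0.0752 FPKM. The log2 ratio was 2.60 with LacZ, 1.60 with HDAC4 wt and 0.18 with HDAC4 3SA.

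The Slc22a6 value is read from a short piece of the gene. The locus, chr19:8626735-8628178 on GRCm38, lies in 1 of the 10 exons of the GENCODE M21 transcript and covers 36.3% of the exon bases and 0 of the 1635 coding bases. Over its 1444 bases, the 4 low values correspond to 0.633 to 1.09 fragments per 10000000 mapped fragments, and the CFA values of LacZ and HDAC4 wt mice to 11.1 and 5.60. The low values thus rest on about 1 fragment per 10000000. Slc22a6 was the member with the smallest share of its exons in its locus; the other 9 had between 72.2% (Dpp4) and 100% (Cdh1).

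Slc47a1 encodes MATE1, which exports organic cations in exchange for protons and marks a class of meningeal cells. It went from 0.0370 to 1.26 FPKM with LacZ and from 0.0407 to 1.30 FPKM with HDAC4 wt, plain ratios of 33.9 and 31.9. Its values with HDAC4 3SA were 0.0442 and 0.121 FPKM, a ratio of 2.74. The saline values of the 3 vectors were therefore close to each other, and the CFA value of HDAC4 3SA mice over those of LacZ and HDAC4 wt was -2.62 and -2.66 on the log2 scale. Among the barrier genes set beside Slc22a6, this one had the largest log2 ratio, 3.31 in both LacZ and HDAC4 wt mice against 0.62 with HDAC4 3SA. The locus spans chr11:61343401-61378199 with all 18 exons of the longest transcript and 95.7% of the exon bases, so, unlike Slc22a6, it is read over nearly the whole transcript. The second row of the name was at most 0.188 FPKM in any group and was highest after CFA with HDAC4 wt.

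Slc26a7, which encodes an anion exchanger and chloride channel of epithelia, was likewise highest in the CFA groups of LacZ and HDAC4 wt mice. It was 0.0968 and 0.765 FPKM after saline and CFA with LacZ, 0.0870 and 0.803 FPKM with HDAC4 wt and 0.0564 and 0.0897 FPKM with HDAC4 3SA. The CFA values of LacZ and HDAC4 wt mice exceeded the highest of the other 4 values, 0.0968 FPKM, several fold. The log2 ratio was 2.14 with LacZ, 2.27 with HDAC4 wt and 0.28 with HDAC4 3SA.

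Msln encodes mesothelin, a cell surface protein of mesothelial linings. It was 0.0517 and 1.01 FPKM with LacZ, 0.114 and 0.916 FPKM with HDAC4 wt and 0.0837 and 0.0962 FPKM with HDAC4 3SA. Again the CFA groups of LacZ and HDAC4 wt mice were apart from the other 4 groups. The log2 ratio with HDAC4 3SA minus that with LacZ was -2.78, and minus that with HDAC4 wt -2.15.

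Cdh1 was present at a higher level from the start. It encodes E-cadherin, the adhesion molecule of epithelial junctions, and had the second-highest mean of the gene set, 2.59 FPKM. It was 2.09 and 3.54 FPKM after saline and CFA with LacZ, 2.29 and 2.71 FPKM with HDAC4 wt and 3.00 and 1.93 FPKM with HDAC4 3SA. The CFA value was thus 1.70-fold the saline value with LacZ, 1.18-fold with HDAC4 wt and 0.642-fold with HDAC4 3SA. None of these reached 2-fold, and part of the contrast lies in the saline value, which was highest with HDAC4 3SA. At 88.2 to 162 fragments per 10000000, Cdh1 is the member with the most fragments behind each value.

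Dpp4 encodes dipeptidyl peptidase 4, a cell surface protease. Its values were 0.211 and 0.474 FPKM with LacZ, 0.145 and 0.435 FPKM with HDAC4 wt and 0.389 and 0.143 FPKM with HDAC4 3SA. It was raised with HDAC4 wt (log2 ratio 1.13), stayed just under 2-fold on this scale with LacZ (0.88), and was lowered with HDAC4 3SA (-1.01), where its saline value was the highest of the 3 vectors. The known barrier genes Slc47a1, Dpp4 and Cdh1 thus had higher values after CFA in LacZ and HDAC4 wt mice, as had Slc22a6, Msln and Slc26a7. In HDAC4 3SA mice Slc47a1 was higher after CFA, by the plain ratio of 2.74, and Dpp4 and Cdh1 were lower.

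Prdm6 and Tspan11 are not known as barrier genes. Prdm6, a transcriptional repressor of smooth muscle precursors, was 0.0654 and 0.450 FPKM with LacZ, 0.144 and 0.420 FPKM with HDAC4 wt and 0.0540 and 0.116 FPKM with HDAC4 3SA. Tspan11, a membrane protein of the tetraspanin family, was 0.0995 and 0.421 FPKM with LacZ, 0.191 and 0.651 FPKM with HDAC4 wt and 0.185 and 0.180 FPKM with HDAC4 3SA. Both were raised in LacZ and HDAC4 wt mice. Prdm6 kept a log2 ratio of 0.49 with HDAC4 3SA, whereas that of Tspan11 was -0.03.

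Krtdap and Wfdc21 stand apart from the other members. Krtdap encodes a small secreted protein of differentiating keratinocytes. It is listed at 0 FPKM after saline with every vector and after CFA with HDAC4 3SA, and at 13.7 FPKM after CFA with LacZ and 19.2 FPKM with HDAC4 wt, the highest levels of the gene set. Only 2 loci were listed at 0 FPKM in those 4 groups and at 1 FPKM or more in both of these CFA groups, Krtdap and the immunoglobulin segment Ighv10-3. The Krtdap locus, chr7:30789519-30791065, holds 506 exon bases (74.5% of the total). Wfdc21 encodes a small secreted protein with a WAP (whey acidic protein) domain. With LacZ the saline group is listed at 0 and the CFA group at 1.62 FPKM, but it was 0.573 and 0.298 FPKM with HDAC4 wt and 0.886 and 0.732 FPKM with HDAC4 3SA. Wfdc21 was the only member with a lower value after CFA with HDAC4 wt, and its saline values were 0.573 and 0.886 FPKM with the HDAC4 vectors where LacZ is listed at 0. No fold is given for either gene with LacZ, because the saline group is listed at 0.

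**Figure D1:**
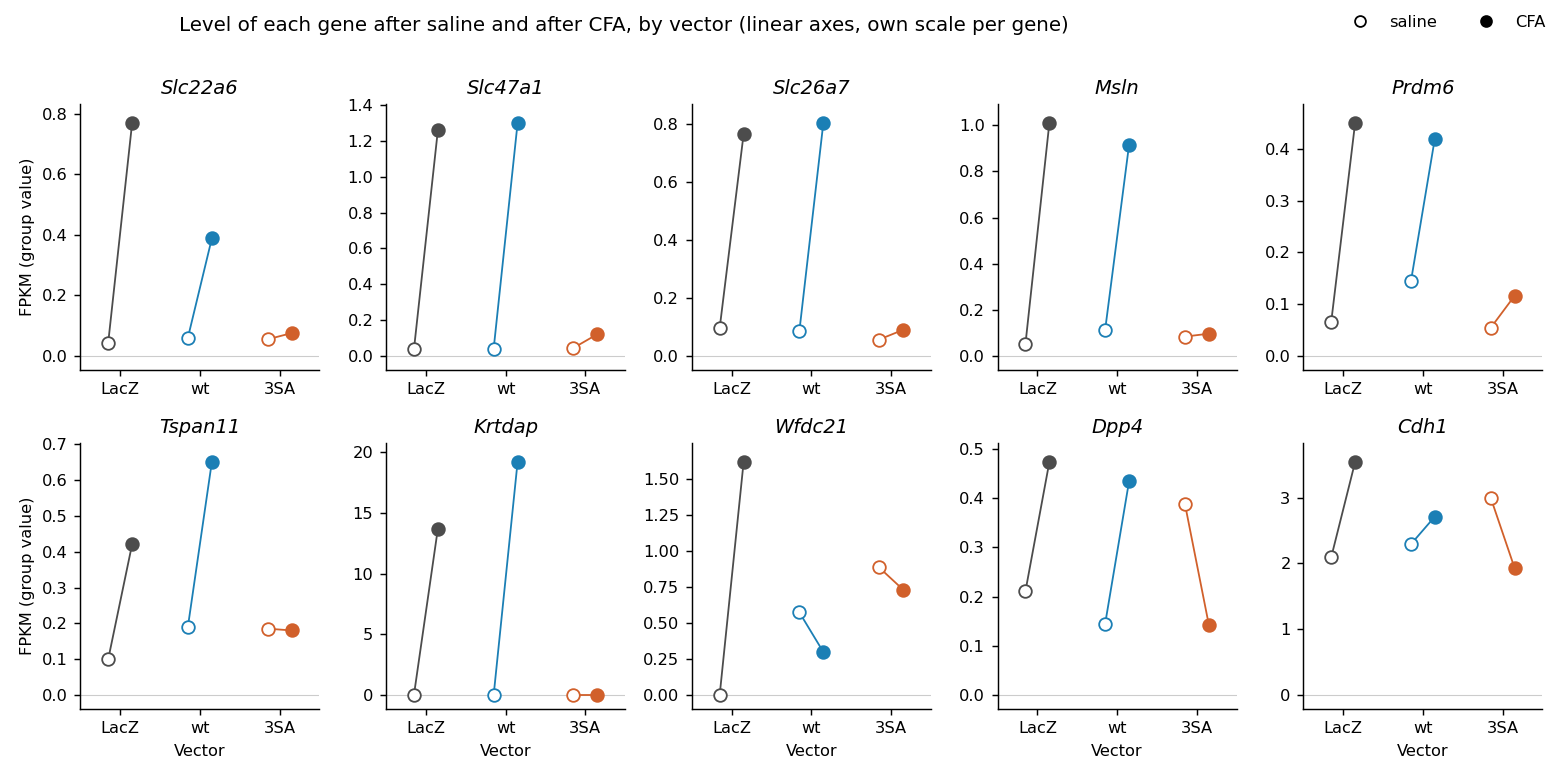
Level of each of the 10 genes in FPKM (y axis, linear, own scale per gene) after saline (open circles) and CFA (filled circles) in LacZ, HDAC4 wt and HDAC4 3SA mice; each circle is the single value of a group. Slc47a1 goes from 0.0370 to 1.26 FPKM with LacZ and from 0.0442 to 0.121 FPKM with HDAC4 3SA, while Dpp4 and Cdh1 slope upwards with LacZ and downwards with HDAC4 3SA.

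Read together, 8 of the 10 genes were raised by CFA with LacZ, where 1.93% of all 33972 loci were raised, and 0 of 10 were lowered against 1.77%. In HDAC4 wt mice 8 of 10 were raised against 3.22% of all loci and 0 of 10 were lowered against 2.43%. In HDAC4 3SA mice 0 of 10 were raised against 4.31%. By plain ratio, Slc47a1 (2.74) and Prdm6 (2.14) with HDAC4 3SA and Dpp4 (2.25) with LacZ were past 2-fold. The CFA value was above the saline value for 10 of 10 genes with LacZ, 9 of 10 with HDAC4 wt and 5 of 10 with HDAC4 3SA, against 49.0%, 52.4% and 51.4% of all loci. The median log2 ratio over the 10 was 2.37, 1.49 and 0.05 for LacZ, HDAC4 wt and HDAC4 3SA, and that of all loci was within 0.01 of 0 in each vector. Without Krtdap and Wfdc21, which have a group listed at 0, 6 of 8 were raised with LacZ, 7 of 8 with HDAC4 wt and 0 of 8 with HDAC4 3SA. In HDAC4 3SA mice 1 gene, Dpp4, was lowered, against 2.07% of all loci. Raised in both LacZ and HDAC4 wt mice and not with HDAC4 3SA were 7 of the 10 (Krtdap, Msln, Prdm6, Slc22a6, Slc26a7, Slc47a1 and Tspan11), against 0.230% of all loci (78 loci). The log2 ratio of HDAC4 3SA mice was at least 1 below both other ratios for 7 of the 10 (Dpp4 in place of Prdm6), against 1.57% of all loci. The genes were chosen for this contrast, so these shares are descriptions of the choice. The 3 comparisons do not share mice. Cuffdiff marked 6 of the 10 genes (Slc22a6, Slc47a1, Slc26a7, Msln, Prdm6 and Krtdap) as holding too few alignments to be tested in the HDAC4 3SA table, and none of the 10 in the other tables.

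**Figure D2:**
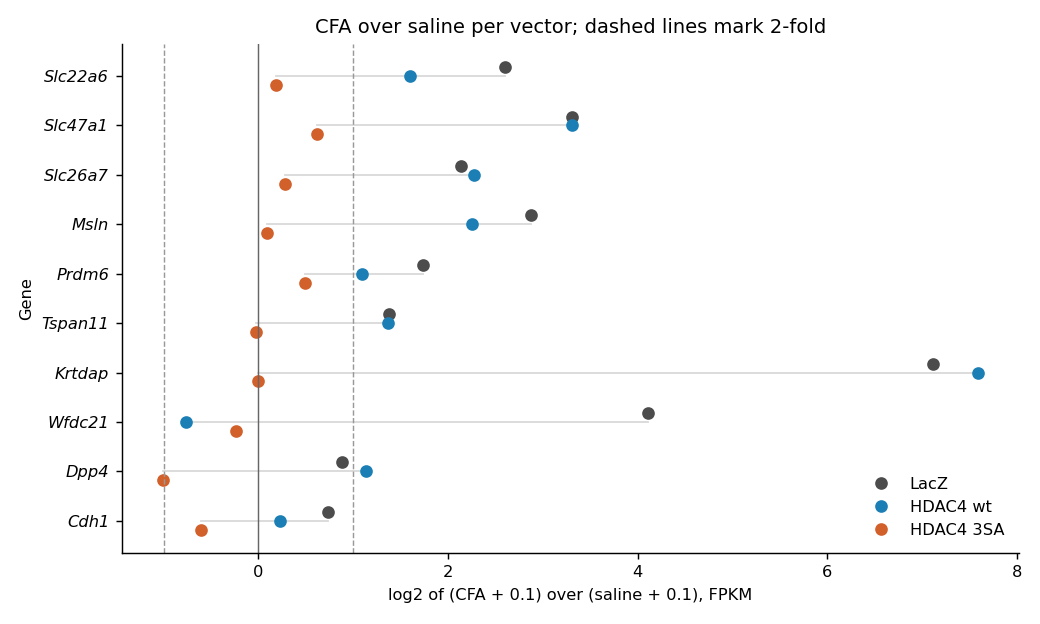
Log2 ratio of CFA over saline with 0.1 FPKM added (x axis) for each of the 10 genes (y axis) in LacZ, HDAC4 wt and HDAC4 3SA mice; dashed lines mark 2-fold. Each point is a ratio of 2 group values. All HDAC4 3SA points lie below 2-fold up, from -1.01 (Dpp4) to 0.62 (Slc47a1), and only Wfdc21 is below 0 with HDAC4 wt.

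Set side by side across tables, with 0.1 FPKM added to each level, the CFA levels were at least 2-fold lower with HDAC4 3SA than with LacZ for 8 of the 10 genes (all but Cdh1 and Tspan11), against 4.27% of all loci. Without the added 0.1 FPKM, Tspan11 (0.180 against 0.421 FPKM) was past 2-fold as well. They were at least 2-fold lower with HDAC4 3SA than with HDAC4 wt for 8 of the 10 (all but Cdh1 and Wfdc21), against 3.10% of all loci. After saline, on the same scale, only Wfdc21 was 2-fold apart between HDAC4 3SA and LacZ mice, against 11.5% of all loci, and likewise between HDAC4 wt and LacZ mice, against 13.2%. Without the added 0.1 FPKM, Msln (0.114 against 0.0517 FPKM) and Prdm6 (0.144 against 0.0654 FPKM) were past 2-fold between HDAC4 wt and LacZ too. Levels of all loci showed no overall shift between the tables, with medians within 0.02 of 0 on the log2 scale. Hdac4 itself was 7.41 and 7.72 FPKM with LacZ, 10.1 and 10.8 FPKM with HDAC4 wt and 8.86 and 8.81 FPKM with HDAC4 3SA. Whether reads of the vector are included in these values was not tested.

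A list of 12 other genes of the arachnoid barrier was read in the same way, and 11 of them could be matched, all with a mean of at least 0.1 FPKM. None of the 11 was raised or lowered in any vector, where 1.93% to 4.31% of all loci were raised and 1.77% to 2.43% lowered. Their median log2 ratio was 0.05 with LacZ, 0.15 with HDAC4 wt and 0.21 with HDAC4 3SA, so the list did not show the pattern of Slc22a6. Slc22a8, which encodes OAT3, the closest partner of OAT1 in organic anion uptake, was 3.67 and 4.17 FPKM after saline and CFA with LacZ, 4.10 and 4.51 FPKM with HDAC4 wt and 3.88 and 4.07 FPKM with HDAC4 3SA. The efflux pumps Abcg2 and Abcc4 had log2 ratios of 0.05 and 0.09 with LacZ, of 0.17 and 0.22 with HDAC4 wt and of 0.29 and 0.34 with HDAC4 3SA. The uptake transporter Slco1a4 had 0.05 with LacZ, 0.17 with HDAC4 wt and 0.25 with HDAC4 3SA.

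The junction genes of this list were Cldn11, Ocln and Tjp1. In LacZ mice their log2 ratios were 0.14, -0.03 and -0.10, with HDAC4 wt 0.33, 0.06 and 0.13, and with HDAC4 3SA 0.30, 0.21 and 0.08. Cldn11, which oligodendrocytes also express, was by far the most abundant at 127 to 202 FPKM. The epithelial genes Krt18 and Klf5 lay at or below 0.884 FPKM in every group, with LacZ log2 ratios of -0.15 and 0.37, and the regulator Prox1 had -0.10. Perp, a desmosome-associated membrane protein, came closest to 2-fold, with log2 ratios of 0.62 with LacZ, 0.61 with HDAC4 wt and 0.29 with HDAC4 3SA. Spinal glia, neurons and vessels also express many of these genes, so their levels do not measure the arachnoid alone, and whether the 10 genes were read from arachnoid cells was not tested.

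Genes typical of leptomeningeal fibroblasts, the neighbours of the arachnoid barrier, were read for 17 of 18 listed and had higher values after CFA with LacZ for 17 of 17 genes, with a median log2 ratio of 0.46. In HDAC4 wt mice 11 of 17 were higher, with a median of 0.15, and with HDAC4 3SA 10 of 17, with a median of 0.13. The shares of all loci that were higher after CFA were 49.0%, 52.4% and 51.4% in this order of vectors. The summed level of the 17 genes went from 437 to 770 FPKM with LacZ, from 639 to 804 FPKM with HDAC4 wt and from 577 to 643 FPKM with HDAC4 3SA, and none of the 17 was at 0. In LacZ mice 3 of them were raised and none in the other vectors. Of all loci, 1.93% were raised with LacZ, 3.22% with HDAC4 wt and 4.31% with HDAC4 3SA. Ptgds, prostaglandin D synthase, was the most abundant gene of the list and made up the largest part of each summed level. Its values were 246 and 508 FPKM with LacZ, 371 and 527 FPKM with HDAC4 wt and 328 and 390 FPKM with HDAC4 3SA. The other raised genes, named after their values were seen, were Crabp2, a retinoic acid binding protein, and Foxc2, a transcription factor of the meninges. Crabp2 was 0.866 and 3.28 FPKM with LacZ, 1.70 and 3.02 FPKM with HDAC4 wt and 1.04 and 1.14 FPKM with HDAC4 3SA, and Foxc2 had log2 ratios of 1.07, 0.61 and 0.31 in the same order. The matrix genes Dcn, Col1a2 and Ogn had log2 ratios of 0.37, 0.46 and 0.53 with LacZ, of -0.14, 0.22 and -0.01 with HDAC4 wt and of 0.13, -0.08 and -0.66 with HDAC4 3SA. The part of leptomeningeal tissue in the values of the Slc22a6 gene set was not tested.

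**Figure D3:**
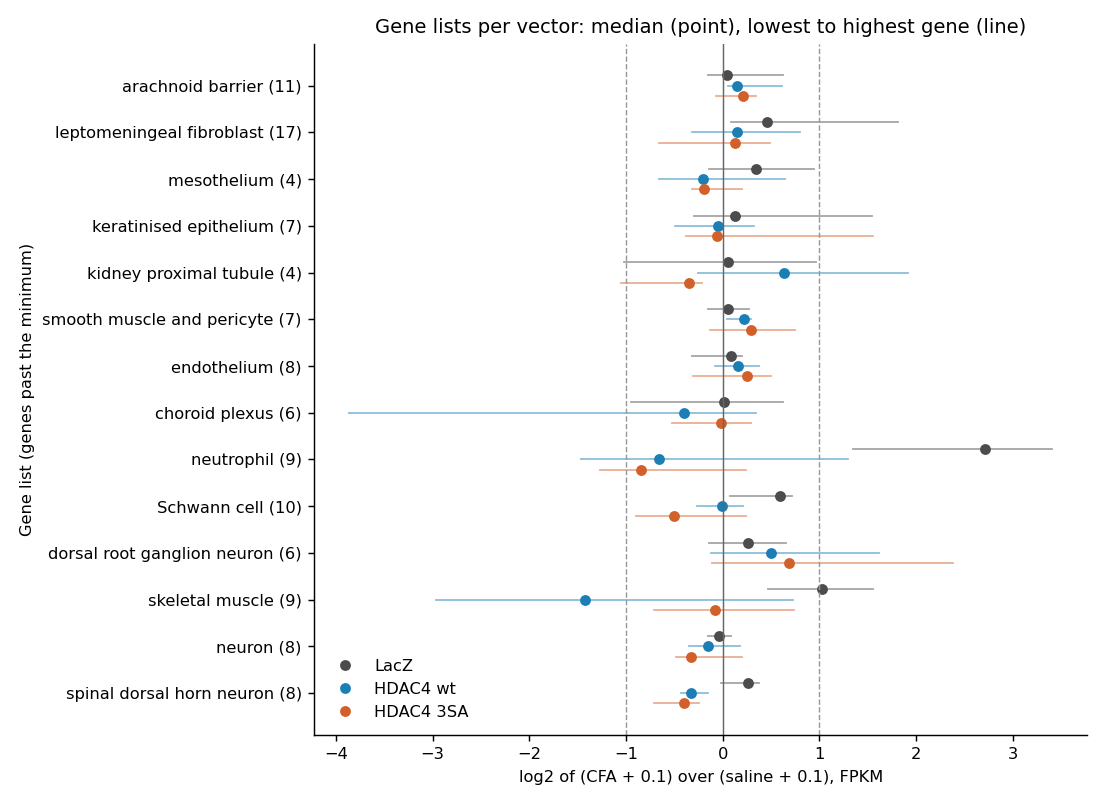
Log2 ratio of CFA over saline with 0.1 FPKM added (x axis) for 14 gene lists (y axis, number of genes read in brackets) in LacZ, HDAC4 wt and HDAC4 3SA mice; points are medians and lines run from the lowest to the highest gene. The arachnoid barrier list lies near 0 with every vector (0.05, 0.15 and 0.21), and the leptomeningeal list is highest with LacZ (0.46).

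Msln, Krtdap and Slc22a6 are also genes of mesothelium, keratinised epithelium and kidney tubule, and lists of these tissues were read beside them. The shares of all loci raised were 1.93%, 3.22% and 4.31% with LacZ, HDAC4 wt and HDAC4 3SA, and those lowered 1.77%, 2.43% and 2.07%. Of 4 mesothelial genes read, Lrrn4, Wt1, Krt19 and Rspo1, none was raised, the medians were 0.34, -0.20 and -0.19, and their summed level was 3.37 to 4.90 FPKM in the 6 groups. Krt19 had the highest log2 ratios of these, 0.94 with LacZ, 0.65 with HDAC4 wt and 0.20 with HDAC4 3SA. In the keratinised epithelium list, 2 of 7 genes were raised with LacZ, 0 with HDAC4 wt and 1 with HDAC4 3SA. These were Ly6d and Krt14 with LacZ and Krt14 with HDAC4 3SA. Krt14, named after its values were seen, was 0.0351 and 0.234 FPKM with LacZ, 0.139 and 0.103 FPKM with HDAC4 wt and 0.127 and 0.571 FPKM with HDAC4 3SA. Ly6d was 0.174 and 0.696 FPKM with LacZ, 4.81 and 6.04 FPKM with HDAC4 wt and 3.39 and 5.67 FPKM with HDAC4 3SA. The list's median log2 ratios were 0.13, -0.05 and -0.06. Of the kidney list, 4 of 10 genes were read: Slc22a7, Lrp2, Cubn and Slc22a2. Their summed level was at most 2.95 FPKM, 0, 2 and 0 of them were raised and 1, 0 and 1 lowered with LacZ, HDAC4 wt and HDAC4 3SA, and the medians were 0.06, 0.63 and -0.35. Cubn, an endocytic receptor, was 0.213 and 0.514 FPKM with LacZ, 0.289 and 0.722 FPKM with HDAC4 wt and 0.241 and 0.179 FPKM with HDAC4 3SA. Lrp2, the gene lowered with LacZ, went the other way there, from 0.263 to 0.0792 FPKM (log2 ratio -1.02). Its log2 ratios were -0.25 with HDAC4 wt and -0.21 with HDAC4 3SA. Slc22a7, another organic anion transporter, was 2.16 and 1.84 FPKM with LacZ, 0.232 and 1.16 FPKM with HDAC4 wt and 0.911 and 0.388 FPKM with HDAC4 3SA.

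Genes of other tissues around or in the dissected piece were read for the same comparisons. Of all loci, 1.93%, 3.22% and 4.31% were raised and 1.77%, 2.43% and 2.07% lowered with LacZ, HDAC4 wt and HDAC4 3SA. Neutrophil genes were raised with LacZ for 9 of 9, with a median log2 ratio of 2.71. With HDAC4 wt 1 of 9 was raised and 4 were lowered, with HDAC4 3SA 0 and 1, and the medians were -0.66 and -0.84. Their summed level went from 11.3 to 114 FPKM with LacZ, from 41.9 to 29.0 FPKM with HDAC4 wt and from 62.4 to 39.0 FPKM with HDAC4 3SA, and none of the 9 was at 0. Of the 9, 6 had a higher value after CFA with LacZ and a lower one with both HDAC4 vectors, as had Wfdc21. The others, named after their values were seen, were Mmp8 and Elane, with log2 ratios of 0.24 each with HDAC4 3SA, and Ly6g. Ly6g alone of the 9 was raised with LacZ and HDAC4 wt and not with HDAC4 3SA (log2 ratios of 1.35, 1.30 and -0.84). It was 0.0860 and 0.374 FPKM with LacZ, 0.0699 and 0.318 FPKM with HDAC4 wt and 0.343 and 0.147 FPKM with HDAC4 3SA. Its values thus lay near the added 0.1 FPKM, and its saline value was highest with HDAC4 3SA. Schwann cell genes had medians of 0.59, -0.01 and -0.50, and skeletal muscle genes 1.03, -1.42 and -0.08, for LacZ, HDAC4 wt and HDAC4 3SA mice. In LacZ mice 5 of the 9 muscle genes were raised, and with HDAC4 wt 5 of 9 were lowered. Endothelial genes (0.09, 0.16 and 0.25) and smooth muscle and pericyte genes (0.06, 0.22 and 0.29) stayed within 2-fold for all members read. Dorsal root ganglion genes had medians of 0.26, 0.50 and 0.69 with LacZ, HDAC4 wt and HDAC4 3SA. Of the 6, 0, 2 and 3 were raised, against 1.93%, 3.22% and 4.31% of all loci, shares that rise in the same order. With HDAC4 3SA, 1 of the 3 raised genes, Trpv1, is listed at 0 FPKM after saline. Among the ganglion genes Prph, a neuronal intermediate filament, was 20.8 and 26.3 FPKM with LacZ, 8.81 and 21.9 FPKM with HDAC4 wt and 15.6 and 43.5 FPKM with HDAC4 3SA. Choroid plexus genes had medians of 0.01, -0.40 and -0.02, and 1 of 6 was lowered with HDAC4 wt. Neuronal genes had medians of -0.04, -0.15 and -0.33 and dorsal horn neuron genes of 0.26, -0.33 and -0.40, with 0 raised or lowered in any vector. The part of these tissues in the levels of the gene set was not tested.

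Among 25277 other loci that name 1 gene, the pattern of Slc22a6 over the 3 vectors was compared by the distance between the 3 log2 ratios, where 0 means equal ratios. The distance takes in the size of each ratio, so a gene raised with the same vectors can still be far. Of the members, Msln (distance 0.71) and Slc26a7 (0.82) were ranks 4 and 6, Prdm6 (1.05) rank 15 and Tspan11 (1.25) rank 28. The members were chosen by these same CFA and saline levels, so these ranks describe the choice. The known barrier genes were farther, Slc47a1 at 1.90 (rank 174), Dpp4 at 2.14 (rank 341) and Cdh1 at 2.44 (rank 1005). Slc47a1 was nevertheless raised with the same vectors, at 3.31, 3.31 and 0.62 with LacZ, HDAC4 wt and HDAC4 3SA. For Slc22a6 these ratios were 2.60, 1.60 and 0.18. Wfdc21 (2.84, rank 4353) and Krtdap (7.50, rank 25179) also have groups listed at 0. Krtdap, with ratios of 7.11, 7.59 and 0.00 in the same order, was far by their size. All of these distances depend on the added 0.1 FPKM, since Slc22a6 itself was below it in 4 groups. With 0.01 FPKM added, Msln was at 0.50 (rank 1), Slc26a7 at 1.16, Prdm6 at 1.71 and Tspan11 at 2.08, and with 0.5 FPKM added Prdm6 and Slc26a7 (both 0.51) were nearer than Msln (0.59, rank 56). Msln, Slc26a7, Prdm6 and Tspan11 were nearer than Slc47a1, Dpp4 and Cdh1 with 0.01, 0.1, 0.5 and 1 FPKM added. Slc47a1, Dpp4 and Cdh1 were set beside the others as known barrier genes, so this order also describes the choice of genes. The order among the known barrier genes turned: Slc47a1 was the nearest of them with 0.01 FPKM (2.53, rank 98, against 3.40 for Dpp4 and 3.97 for Cdh1) and the farthest with 0.5 FPKM (1.18, rank 2390, against 0.94 for both) and with 1 FPKM (0.84, rank 8932, against 0.57 and 0.56). Over the same constants Wfdc21 lay between 0.93 and 4.93 and Krtdap between 5.03 and 10.68.

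The 10 nearest genes outside the set were Lypd2, Lyz1, Dapl1, Prg4, Areg, Cyp4f18, Cxcr2, Krt80, Guca1a and Lama3, at distances of 0.57 to 0.92. Of these 10, 6 were among the nearest 10 with 0.01 FPKM added, 0 with 0.5 FPKM and 1 with 1 FPKM, so the choice rests on the added 0.1 FPKM. Prg4, which encodes lubricin, a lubricating proteoglycan of joints, started from like saline values with the 3 vectors and was 0.435 and 3.76 FPKM with LacZ, 0.498 and 2.98 FPKM with HDAC4 wt and 0.596 and 0.736 FPKM with HDAC4 3SA. Lypd2, a gene of the LY6 family of surface proteins, was 0.0780 and 1.10 FPKM with LacZ, 0.444 and 1.42 FPKM with HDAC4 wt and 0.308 and 0.219 FPKM with HDAC4 3SA. Dapl1 had nearly the same values, 0.0959 and 1.31, 0.344 and 1.27, and 0.259 and 0.159 FPKM. Both had a lower value after CFA than after saline with HDAC4 3SA, where Slc22a6 was slightly higher after CFA.

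Krt80, an epithelial keratin, and Lama3, a laminin chain of epithelial basement membranes, reached 0.657 and 0.918 FPKM at most. The others of the 10 include genes of myeloid cells, Cxcr2 (a chemokine receptor of neutrophils) and Cyp4f18 (a fatty acid hydroxylase), and a lysozyme gene, Lyz1. Saline values of Lyz1 were 0.479, 2.72 and 5.89 FPKM with LacZ, HDAC4 wt and HDAC4 3SA. In LacZ mice after saline, Areg, Cyp4f18, Guca1a and Lama3 are listed at 0 FPKM, so their LacZ ratios rest on the added 0.1 FPKM. For Cyp4f18 and Guca1a the saline values of HDAC4 wt mice were 3.88 and 1.62 FPKM, and those of HDAC4 3SA mice 3.19 and 2.52 FPKM. Their saline levels thus lay further apart across the tables than those of Slc22a6 (0.0438 to 0.0605 FPKM).

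**Figure D4:**
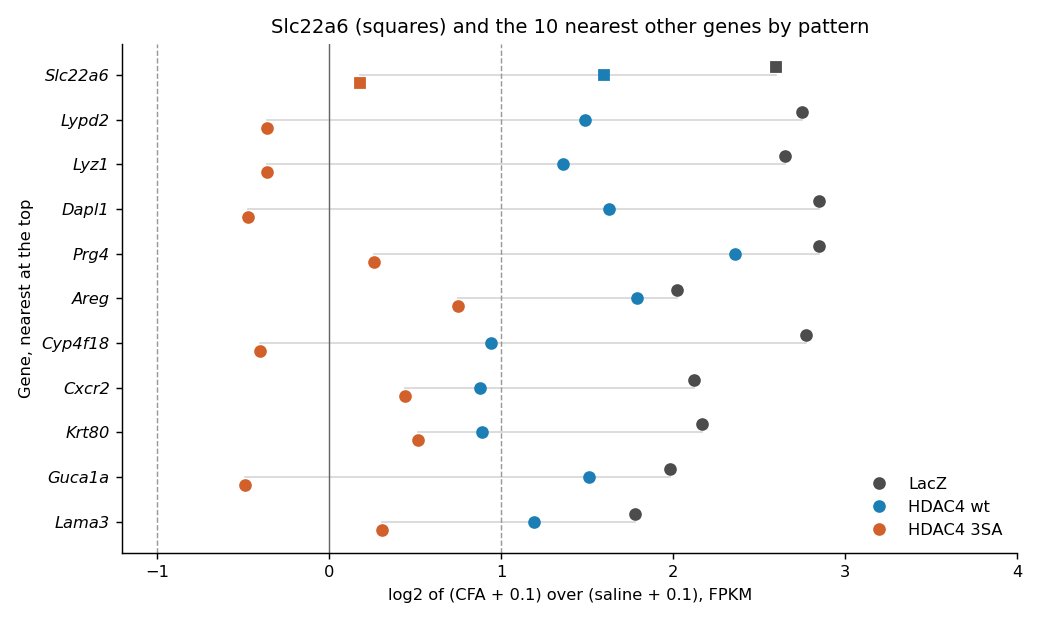
Log2 ratio of CFA over saline with 0.1 FPKM added (x axis) for Slc22a6 (squares) and the 10 genes outside the set with the nearest pattern (circles, nearest at the top) in LacZ, HDAC4 wt and HDAC4 3SA mice; each point is a ratio of 2 group values. The distances run from 0.57 (Lypd2) to 0.92 (Guca1a and Lama3), and the HDAC4 3SA points lie between -0.49 (Guca1a) and 0.75 (Areg).

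By position the 10 genes are spread over 9 chromosomes, with only Slc47a1 and Wfdc21 together on chromosome 11. Msln lies on chromosome 17, Slc26a7 on chromosome 4, Prdm6 on chromosome 18, Tspan11 on chromosome 6, Dpp4 on chromosome 2 and Cdh1 on chromosome 8. The loci of Slc47a1, Slc26a7, Msln, Prdm6, Tspan11, Wfdc21, Dpp4 and Cdh1 take in all of their coding bases, those of Krtdap 199 of 309 and those of Slc22a6 none. By exon bases the share ran from 36.3% (Slc22a6), 72.2% (Dpp4) and 74.5% (Krtdap) to 100% (Cdh1), so most values describe less than the whole annotated transcript.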

How the data were processed

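Strand-specific poly-A libraries of dorsal spinal cord were sequenced as single-end reads for 18 mice, 3 per group. Per the methods and the labels, the authors mapped reads with TopHat and Bowtie to GRCm38 (mm10, Ensembl genes) and ran Cufflinks, Cuffmerge and Cuffdiff, CFA against saline per vector. The deposited values are FPKM, 1 per group over its 3 mice, so the mapped depth per library and the error of a value are unknown, and of depth the methods give a minimum of reads only. The tables also hold Cuffdiff's fold changes, test statistics and p- and q-values, which were not used. The deposited status mark was read as a non-numeric label. Loci were joined by identifier, and 386 loci at different places in different tables were left out. Ratios were log2 of FPKM plus 0.1, over loci with a mean of at least 0.1 FPKM (NumPy 2.4.6, pandas 2.3.3), with steps checked on simulated data. Of the 14 lists with 144 genes, 114 were matched.

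The members and lists were chosen with earlier results of these data known. Genes named are the 10 members, all of the arachnoid barrier list, of every other list at most the 4 with the highest mean, and the 10 nearest patterns to Slc22a6 among loci naming 1 gene. Outside this rule, Crabp2, Foxc2, Krt14, Mmp8, Elane, Ly6g and Trpv1 were named after their values were seen. Apoe and Hdac4 were named as checks, and Ighv10-3 as 1 of 2 loci counted. Exons are from GENCODE M21, a later annotation than the authors used on the same build. Promoter motifs were searched in their consensus forms after looser forms had been tried. Alternatives covered the FPKM added, the minimum, the fold, centring and summing of rows.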

Additional observations from a re-analysis of the deposited data

How the results depend on the processing

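The 6 counts of genes past 2-fold were recomputed under 9 alternatives, and those of the members also without genes listed at 0 FPKM in a group, which was chosen after seeing the data. Of 59 counts, 43 stayed within 1.5 times. With 1 FPKM added, 3 genes were raised with LacZ and 2 with HDAC4 wt, 2 were lower after CFA with HDAC4 3SA than with LacZ, and 0 were apart after saline. With 0.5 FPKM added, 4 were raised with HDAC4 wt and 5 were lower after CFA with HDAC4 3SA than with LacZ. With 0.01 FPKM added or a fold of 1.5, 1 gene (Slc47a1) was raised with HDAC4 3SA. A fold of 1.5 also gave 2 genes apart after saline and 1 raised gene (Perp) of the arachnoid barrier list with LacZ. A fold of 4 left 4 raised with HDAC4 wt and 5 lower after CFA with HDAC4 3SA. A minimum of 0.3 FPKM kept 6 members, without Slc22a6, and gave 5 raised with LacZ, 4 with HDAC4 wt and 5 lower after CFA with HDAC4 3SA. Without genes at 0, 0 were apart after saline. The fall of the counts with more FPKM added or a higher minimum follows from the low levels of these genes. For Slc22a6 the log2 ratio with LacZ was 3.86 with 0.01 FPKM added and 0.76 with 1 FPKM added, and with HDAC4 3SA 0.40 and 0.03. The distances of the members to Slc22a6 and its nearest genes also moved with the FPKM added, as given with those values, with settings chosen after seeing the data. No paired analysis was possible because the tables hold no values per mouse, and for the same reason no mouse could be left out.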
